A study of Mus musculus with 20 samples.

Results

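The Slit and Robo genes were followed through pyramidal cells of the mouse subiculum, through which most hippocampal output leaves. The group holds the ligands Slit1, Slit2 and Slit3 and the receptors Robo1, Robo2 and Robo3. These 6 genes were taken by symbol from 37607 gene rows (ENSMUSG00000025020, ENSMUSG00000031558 and ENSMUSG00000056427 for the Slits, ENSMUSG00000022883, ENSMUSG00000052516 and ENSMUSG00000032128 for the Robos). The bulk part of the study compared 4 populations of these neurons, named by the target of their axons: NA, PFC, RSC and VHN. NA usually stands for nucleus accumbens, PFC for prefrontal cortex and RSC for retrosplenial cortex. VHN is not spelled out in the labels. Each population had 3 biological replicates, sorted by hand as fluorescent neurons out of microdissected slices. All libraries share the region and the cell type, no treatment is named, and strain, age and the fluorescent label are not given in the sources used here. A single-cell table of 384 wells on 4 plates was analysed beside them. Its wells carry no projection label, so they were treated as 1 pooled sample. The plates are read from the well names. The labels list 8 single-cell samples, and nothing ties these to the wells or plates.

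Slits are large secreted proteins that bind the immunoglobulin-type Robo receptors and repel or branch growing axons, with heparan sulfate as a cofactor. Robo1 and Robo2 are the Slit receptors proper. Mammalian Robo3 binds Slits weakly, binds the secreted protein Nell2, and is best known from spinal commissural neurons, where it lets axons cross the midline. In the mature hippocampus Robo2 is known as a synaptic organizer on CA1 pyramidal cells.

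Slit1, Robo1 and Robo2 were higher in the NA and PFC populations than in the RSC and VHN populations. Slit2 was higher as an average over NA and PFC against RSC and VHN, but its libraries overlapped in that contrast. By single populations, Slit2 passed in NA over RSC and in PFC over RSC. It did not pass against VHN, where its mean was 1.43 times that in PFC. The ratio of mean levels was 8.04 for Slit1, 2.85 for Slit2, 5.57 for Robo1 and 3.06 for Robo2. Robo3 went the other way, with a mean 3.27 times as high in RSC and VHN as in NA and PFC. Slit3 did not pass the test (ratio 1.44). All 6 genes passed the filter on low counts. In the contrast of NA and PFC with RSC and VHN, 5 of the 6 passed (edgeR quasi-likelihood test, Benjamini-Hochberg adjusted p under 0.05), against 14.2% of the 13916 genes tested. The 4 that were higher in NA and PFC stand against 7.58% of all genes called in that direction, and the 1 that was lower against 6.66%. In the test for any difference among the 4 populations, 4 of the 6 passed (Slit1, Slit2, Robo1 and Robo2), against 8.93% of all genes. The contrast was chosen with results of the whole series known, so the members are read against these background shares.

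Libraries held 10777273 to 20904126 gene fragments. Levels below are CPM, fragments of a gene relative to a library total scaled by TMM, unless they are given as FPKM. The pyramidal marker Slc17a7, a vesicular glutamate transporter, was present in every library (513 to 1024 CPM), as the labels' cell type implies. It was itself higher in NA and PFC (mean 830 CPM in NA libraries and 997 in PFC libraries, against 596 in RSC libraries and 598 in VHN libraries), with a log2 fold change of 0.61 ± 0.103 (SE, edgeR adjusted p = 0.000759). The 9 interneuron markers summed to 6.68 to 12.4 CPM in NA libraries and 6.19 to 32.4 in PFC libraries, against 130 to 461 in RSC libraries and 179 to 245 in VHN libraries. Lamp5 (mean 3.39 CPM for NA, 14.5 for PFC, 163 for RSC and 141 for VHN) made up 70.3 to 99.3% of this sum in 4 of the 6 RSC and VHN libraries, 48.5% in RSC replicate 3 and 27.1% in VHN replicate 3. In the single-cell wells described below, Lamp5 was read in 34.5%, Pvalb in 6.03% and each other marker of this list in at most 0.862%. The sum is therefore not read as an amount of interneuron RNA. Of its 9 markers 6 were tested, and 5 of these were lower in NA and PFC, against 6.66% of all genes. They were Lamp5 (edgeR adjusted p = 5.39e-05), Pvalb (0.0129), Gad2 (0.0312), Npy (0.0313) and Gad1 (0.04999), while Sst (0.708) did not pass. Vip was at 0 in all 12 libraries. Gad2, which defines inhibitory neurons, reached 43.3 CPM in RSC replicate 2, 177 in RSC replicate 3 and 91.9 in VHN replicate 3, and was at most 7.40 CPM elsewhere. The endothelial and mural markers summed to 24.01 to 91.8 CPM in NA and PFC, against 2.02 to 21.5 in RSC and VHN. Rgs5 (mean 37.1 CPM for NA, 76.6 for PFC, 7.43 for RSC and 8.29 for VHN) passed the test and made up 94.6% or more of that sum in every library except VHN replicate 1 (39.1%), while Cldn5, which defines endothelial cells, was at 0 in all 12 libraries. The part of these other transcripts in the differences below was not tested beyond the values without the 3 Gad2 libraries. In bulk samples fewer cells of a type and less RNA per cell cannot be told apart.

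**Figure D1:**
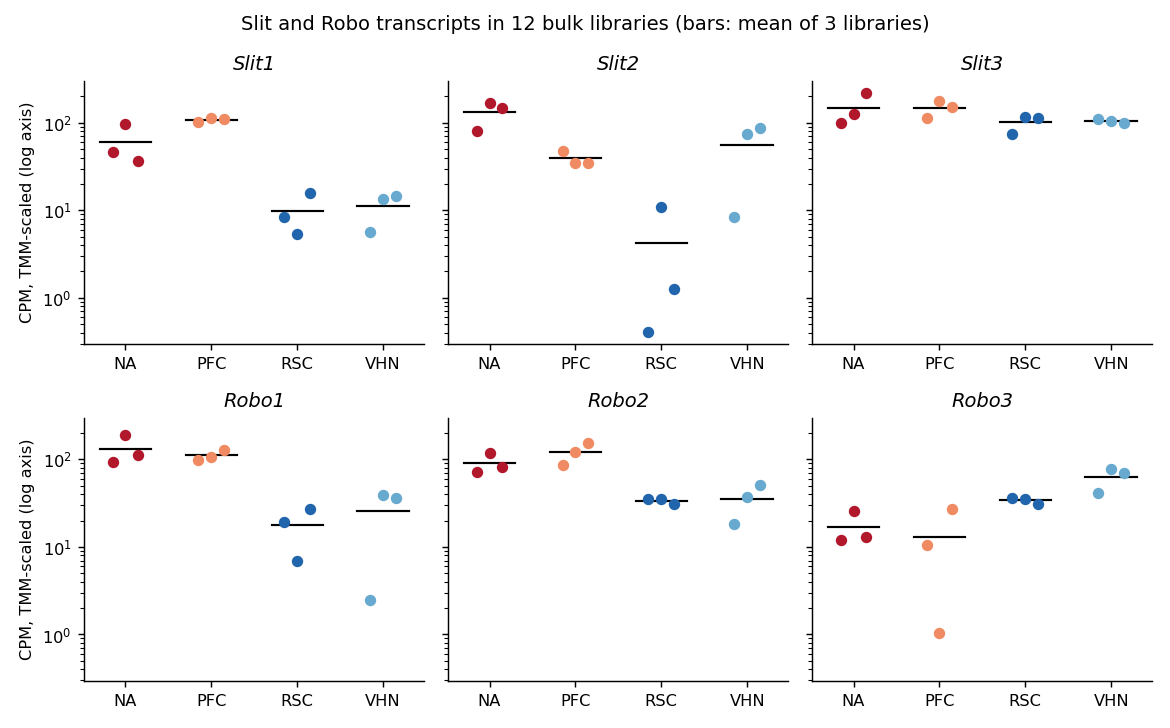
CPM of each gene (log axis, same scale in all panels) in the 12 bulk libraries, grouped by projection target. Points are libraries and bars are means of 3 libraries. Slit1, Robo1 and Robo2 sit higher in every NA and PFC library than in any RSC or VHN library, Robo3 sits lower, Slit2 scatters widely in VHN, and Slit3 stays between 75.0 and 219 CPM.

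The start regions of 3 of the genes that differed are shown first, because their contrasts go in opposite directions. Robo1 was higher in NA and PFC, Slit2 was higher there as an average over both populations, and Robo3 was lower. Each line gives the 250 bases before the RefSeq transcription start in the GRCm38.p6 assembly, read along the strand of the gene. Slit2 lies at chr5:47982905-47983154 on the plus strand, Robo1 at chr16:72662899-72663148 on the plus strand and Robo3 at chr9:37433176-37433425 on the minus strand. Capitals mark matches, on either strand, to the TATA box TATAAA, the GC box GGGCGG (read as CCGCCC on the other strand), the E-box CAGCTG or the homeodomain core TAATTA.
Slit2: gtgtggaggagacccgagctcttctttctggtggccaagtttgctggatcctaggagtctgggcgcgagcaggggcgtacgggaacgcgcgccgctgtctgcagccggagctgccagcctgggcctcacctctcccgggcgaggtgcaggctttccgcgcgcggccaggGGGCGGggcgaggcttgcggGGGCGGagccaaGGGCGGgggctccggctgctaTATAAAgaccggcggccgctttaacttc
Robo1: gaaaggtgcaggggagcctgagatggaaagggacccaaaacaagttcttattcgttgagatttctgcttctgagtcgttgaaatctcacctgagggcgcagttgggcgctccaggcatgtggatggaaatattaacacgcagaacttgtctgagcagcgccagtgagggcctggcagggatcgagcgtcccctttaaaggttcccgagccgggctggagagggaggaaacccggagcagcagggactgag
Robo3: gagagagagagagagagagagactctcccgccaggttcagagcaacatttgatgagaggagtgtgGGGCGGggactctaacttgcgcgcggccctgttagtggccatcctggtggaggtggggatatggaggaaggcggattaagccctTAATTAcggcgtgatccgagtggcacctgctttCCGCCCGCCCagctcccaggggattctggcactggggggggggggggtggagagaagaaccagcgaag

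The Slit2 window holds 1 TATAAA and 3 GGGCGG, the Robo3 window 3 GGGCGG (a pair of them overlapping in 1 run) and 1 TAATTA, and the Robo1 window none of the 4 motifs. Over the 32851 mouse windows of this length in the table, TATAAA was present in 12.4%, GGGCGG in 32.7%, CAGCTG in 13.0% and TAATTA in 4.84%. Slit3, which did not pass, has 6 GGGCGG in its window, and 1 of the 3 Robo2 start windows has a CAGCTG and no other match. CpG dinucleotides number 25 in the Slit2 window, 35 in that of Slit3, 11 in that of Robo1, 12 in that of Robo3 and 8, 4 and 14 in those of Robo2, against a median of 6 over all windows. These are matches of letters and not sites shown to be bound. Robo1 and Robo2 lie on chromosome 16 on opposite strands, while Slit1 is on chromosome 19, Slit2 on 5, Slit3 on 11 and Robo3 on 9.

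Among the ligands, Slit1 alone had no overlap between the NA and PFC libraries and the RSC and VHN libraries. The 3 NA libraries had 46.7, 96.5 and 36.4 CPM and the PFC libraries 103, 114 and 109 CPM, against 8.31, 5.35 and 15.6 CPM for the RSC libraries and 5.62, 13.4 and 14.7 CPM for the VHN libraries. The lowest NA or PFC library therefore lay above the highest RSC or VHN library. The log2 fold change of NA and PFC over RSC and VHN was 2.94 ± 0.367 (SE, edgeR adjusted p = 5.28e-05). The order of mean levels was PFC (109 ± 5.81), NA (59.9 ± 32.1), VHN (11.2 ± 4.91) and RSC (9.74 ± 5.25 CPM, SD, n = 3 each). The PFC libraries did not overlap those of NA, but the difference of NA from PFC did not pass (-0.86 ± 0.484 on the log2 scale, SE, edgeR adjusted p = 0.453). The libraries of VHN and RSC overlapped. All 4 comparisons across the pairs passed, with edgeR log2 fold changes of 2.62 (NA over RSC), 2.41 (NA over VHN), 3.48 (PFC over RSC) and 3.27 (PFC over VHN). NA over VHN was lost without VHN replicate 1 (adjusted p = 0.0877) or VHN replicate 2 (0.0586).

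Slit2, whose product is cut into fragments with separate activities, followed another order: its mean was highest in NA and lowest in RSC. The NA libraries had 80.9, 170 and 148 CPM and the PFC libraries 48.0, 34.6 and 35.1 CPM, against 0.404, 10.9 and 1.26 CPM for the RSC libraries and 8.46, 73.6 and 86.8 CPM for the VHN libraries. The 3 RSC values rest on 7, 198 and 26 fragments. VHN replicates 2 and 3 lay above all PFC libraries, and VHN replicate 1 lay below them. The log2 fold change of NA and PFC over RSC and VHN was 2.23 ± 0.613 (SE, edgeR adjusted p = 0.0211). It was 3.38 without RSC replicate 2 (adjusted p = 0.00065) and 4.14 without the 3 Gad2 libraries (0.0019). By mean level the order was NA (133 ± 46.5), VHN (56.3 ± 41.9), PFC (39.2 ± 7.62) and RSC (4.19 ± 5.84 CPM, SD, n = 3 each). VHN did not pass against either neighbour in this order. NA over VHN was 1.24 ± 0.835 on the log2 scale (SE, edgeR adjusted p = 0.469), and PFC over VHN was -0.52 ± 0.827 (0.801). NA over PFC was 1.76 ± 0.848 (0.384), with no overlap of libraries. The comparisons that passed were NA over RSC (4.99 ± 0.98, adjusted p = 0.00581) and PFC over RSC (3.22 ± 0.908, 0.0326). Without RSC replicate 2 these were 7.29 and 5.53. PFC over RSC was lost when any 1 of PFC replicates 1, 2 or 3 or RSC replicates 1 or 3 was left out (adjusted p 0.0545 to 0.115). RSC over VHN, at -3.75 ± 0.927, had an unadjusted p of 0.000882 and an adjusted p of 0.472 in a comparison in which edgeR called no gene. The 4-population call of Slit2 (adjusted p = 0.0166) was lost without RSC replicate 3 (0.0543).

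Slit3 had the smallest fold change of the 6 genes. Its level was 99.7, 127 and 219 CPM in the NA libraries and 114, 179 and 152 CPM in the PFC libraries, against 75.0, 117 and 113 CPM in the RSC libraries and 109, 105 and 99.8 CPM in the VHN libraries. NA replicate 3 was the highest library and RSC replicate 1 the lowest, and the NA and PFC libraries overlapped the RSC and VHN libraries. By pairs of populations, PFC and VHN did not overlap and the other 5 pairs did. The log2 fold change of NA and PFC over RSC and VHN was 0.52 ± 0.21 (SE, edgeR adjusted p = 0.112), and no pairwise comparison passed. A p above the threshold does not show that the levels were equal.

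Among the receptors, Robo1 and Robo2 were both higher in NA and PFC. Robo1 stood at 93.5, 192 and 111 CPM in the NA libraries and 99.8, 106 and 127 CPM in the PFC libraries, against 19.4, 6.84 and 27.3 CPM in the RSC libraries and 2.47, 39.2 and 35.8 CPM in the VHN libraries. No RSC or VHN library reached the lowest NA library. The log2 fold change was 2.49 ± 0.488 (SE, edgeR adjusted p = 0.00229), and the means were 132 ± 52.6 CPM for NA, 111 ± 14.4 for PFC, 17.9 ± 10.3 for RSC and 25.8 ± 20.3 for VHN (SD over 3 libraries). NA and PFC overlapped, as did RSC and VHN. NA over RSC (log2 fold change 2.89, edgeR adjusted p = 0.0211) and PFC over RSC (2.63, 0.0233) passed, while NA over VHN (2.36, 0.0786) and PFC over VHN (2.10, 0.09) did not. VHN replicate 1 was the lowest library, with 47 fragments. The NA over RSC call was lost without NA replicate 2 (adjusted p = 0.0569), RSC replicate 1 (0.0746) or RSC replicate 2 (0.0903). The PFC over RSC call was lost without PFC replicate 3 (0.057), RSC replicate 1 (0.0738) or RSC replicate 2 (0.0976). The 4-population call (0.0177) was lost without the 3 Gad2 libraries (0.093).

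Robo2 stood at 72.6, 118 and 83.0 CPM in the NA libraries and 86.1, 120 and 155 CPM in the PFC libraries, against 35.0, 35.7 and 30.7 CPM in the RSC libraries and 18.3, 37.2 and 50.7 CPM in the VHN libraries. Again every NA and PFC library lay above every RSC and VHN library, with 72.6 CPM in the lowest NA library, against 50.7 CPM in the highest VHN library. The log2 fold change was 1.60 ± 0.268 (SE, edgeR adjusted p = 0.000676). The order of means was PFC (121 ± 34.5), NA (91.2 ± 23.7), VHN (35.4 ± 16.3) and RSC (33.8 ± 2.71 CPM, SD, n = 3 each), with overlap between PFC and NA and between VHN and RSC. NA over RSC (1.43, edgeR adjusted p = 0.0331), PFC over RSC (1.83, 0.00548) and PFC over VHN (1.77, 0.0116) passed, and NA over VHN (1.36, 0.0625) did not. NA over RSC was lost without NA replicate 2 or 3 or any 1 of the RSC libraries (adjusted p 0.051 to 0.119), and PFC over VHN without VHN replicate 1 (0.0582) or 2 (0.0502).

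Robo3 showed the opposite pattern. Its level was 11.99, 26.0 and 13.0 CPM in the NA libraries and 10.5, 1.04 and 27.0 CPM in the PFC libraries, against 36.2, 35.7 and 31.3 CPM in the RSC libraries and 41.3, 77.8 and 70.5 CPM in the VHN libraries. The highest NA or PFC library lay below the lowest RSC or VHN library, and PFC replicate 2, with 15 fragments, was the lowest of all. The log2 fold change of NA and PFC over RSC and VHN was -1.66 ± 0.518 (SE, edgeR adjusted p = 0.0403). This call was lost when any 1 of NA replicates 1 or 3, PFC replicate 1, RSC replicates 1, 2 or 3 or VHN replicates 2 or 3 was left out (adjusted p 0.0606 to 0.0921), and without the 3 Gad2 libraries (0.213, log2 fold change -1.64). It was kept without NA replicate 2, PFC replicates 2 or 3 or VHN replicate 1. The order of means was VHN (63.2 ± 19.3), RSC (34.4 ± 2.68), NA (17.0 ± 7.84) and PFC (12.8 ± 13.1 CPM, SD, n = 3 each). RSC and VHN did not overlap, NA and PFC did, and none of the 6 pairwise comparisons passed. In RSC replicate 1 Robo3 was at 36.2 CPM, Gad2 was at 0 and the interneuron markers summed to 130 CPM, of which Lamp5 made up 96.0%. The part of these markers in the Robo3 difference was not tested beyond the value without the 3 Gad2 libraries.

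**Figure D2:**
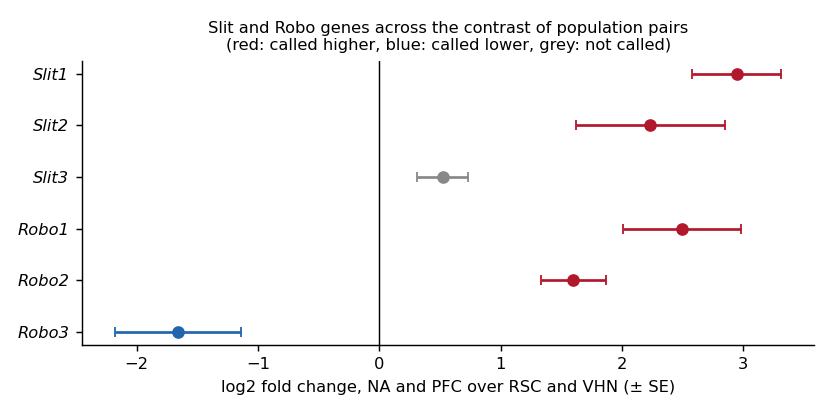
Log2 fold change of NA and PFC over RSC and VHN (6 against 6 libraries) for each gene, with its standard error as the bar. Slit1 (2.94), Robo1 (2.49), Slit2 (2.23) and Robo2 (1.60) lie to the right of 0 and passed, Slit3 (0.52) did not pass, and Robo3 (-1.66) lies to the left and passed.

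In all, 4 of the 6 members (Slit1, Robo1, Robo2 and Robo3) had no overlap between the 6 NA and PFC libraries and the 6 RSC and VHN libraries, against 7.52% of all genes tested. For single pairs, with 3 against 3 libraries, the share of all genes without overlap was not counted. A lack of overlap in such a pair is therefore not read as a difference by itself. By single pairs, NA over RSC called 4 members (all but Slit3 and Robo3) against 5.83% of all genes, and PFC over RSC the same 4 against 9.76%. NA over VHN called Slit1 alone against 2.75%, and PFC over VHN called Slit1 and Robo2 against 5.09%. NA over PFC called no member against 0.438% of genes. At an unadjusted p under 0.05 no member passed in NA over PFC, where Slit2 had 0.0537. RSC over VHN called no member against 0% of genes. In that last comparison 721 genes (5.18%), Slit2 among them, had an unadjusted p under 0.05, and DESeq2 called 59 genes. These comparisons share libraries with each other and are not independent.

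Levels were compared between genes per length, in the FPKM the authors deposited. Slit3 was the most abundant member by median in PFC, RSC and VHN (40.8, 32.5 and 27.4 FPKM), and Slit2 in NA (49.6 FPKM, next to Slit3 at 42.4). The least abundant was Robo3 in NA and PFC (medians 3.01 and 3.37 FPKM), Slit2 in RSC (0.439) and Slit1 in VHN (4.26). The authors' FPKM divided by CPM varied between libraries by 1.62 times for Robo1 and up to 3.36 times for Slit2, so orders between genes within that range are uncertain.

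The share of Robo3 set NA and PFC apart from RSC and VHN, while the Slit3 shares of VHN overlapped those of NA and PFC. These shares follow from the levels above and were not tested. Robo3 was 5.90 to 6.84% of the summed Robo FPKM in NA libraries and 0.749 to 16.4% in PFC libraries, against 33.3 to 50.4% in RSC libraries and 35.6 to 67.6% in VHN libraries. In CPM the share of Robo3 was 6.27 to 7.75% for NA and 0.457 to 8.73% for PFC, against 35.0 to 45.6% for RSC and 44.9 to 66.6% for VHN. The Robo3 shares of NA and PFC did not overlap those of RSC and VHN on either scale. Slit3 was 14.6 to 51.6% of the summed Slit FPKM in NA libraries and 35.4 to 59.9% in PFC libraries, against 88.9 to 91.3% in RSC libraries and 41.2 to 89.9% in VHN libraries. VHN libraries were not alike here: Slit3 made up 89.9% in replicate 1, 52.3% in replicate 2 and 41.2% in replicate 3, where Slit2 took 50.8%. The summed Slit level was 98.1 to 163 FPKM in NA libraries and 82.4 to 132 in PFC libraries, against 18.6 to 40.4 in RSC libraries and 35.7 to 53.6 in VHN libraries. The summed Robo level was 42.8 to 105 FPKM in NA libraries and 51.3 to 72.7 in PFC libraries, against 15.8 to 26.4 in RSC libraries and 16.1 to 41.4 in VHN libraries.

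**Figure D3:**
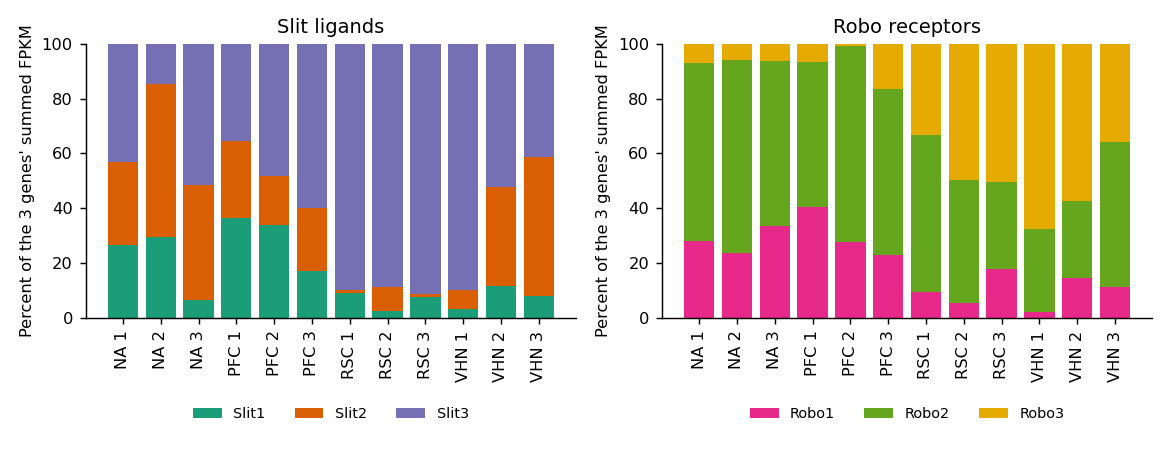
Share of the summed FPKM of the 3 Slit genes (left) and of the 3 Robo genes (right) in each of the 12 libraries, in percent. Slit3 fills 88.9% or more of the ligand bar in the RSC libraries and VHN replicate 1, and Robo3 fills 33.3% or more of the receptor bar in every RSC and VHN library and at most 16.4% in NA and PFC.

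For each member that passed the 4-population test, the genes most like it over the 12 libraries were found by Pearson correlation of log2(CPM + 1) among 9948 genes of at least 5 CPM on average. The libraries share 1 split into 2 clusters, so r serves here only to rank genes and is given with no p. Slit1 was most like Dgkb (r = 0.977), Cacna2d1 (0.970) and Dcn (0.961). Slit2 was most like Klhl1 (0.938), Fam135b (0.935) and Plod2 (0.917). Robo1 was most like Vstm2l (0.949), Gpr158 (0.947) and Cntnap2 (0.943), and Robo2 most like Wipf3 (0.965), Wasf1 (0.960) and Iqgap2 (0.959). Among these genes Klhl1 (edgeR adjusted p = 0.112), Fam135b (0.0574) and Vstm2l (0.371) did not pass the 4-population test themselves.

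Genes around the pathway were taken from 4 lists. Of 12 other ligands and receptors, 10 were tested. In NA and PFC, 4 of these were higher and none was lower, against 7.58% of all genes called higher and 6.66% called lower (median log2 fold change 1.14, against 0.013 over all genes tested). Dcc, a receptor for the guidance cue netrin, averaged 49.4 ± 21.2 CPM in the NA libraries and 49.6 ± 33.9 CPM in the PFC libraries, against 3.83 ± 2.94 CPM in the RSC libraries and 2.77 ± 3.4 CPM in the VHN libraries (SD over 3 libraries), with a log2 fold change of 3.93 ± 0.779 (SE, edgeR adjusted p = 0.00255). Nell2, the secreted ligand of Robo3, averaged 439 ± 90.6 CPM in the NA libraries and 629 ± 46.4 CPM in the PFC libraries, against 154 ± 38.5 CPM in the RSC libraries and 190 ± 15.05 CPM in the VHN libraries (SD, 3 libraries a group). Its log2 fold change was 1.62 ± 0.148 (SE, edgeR adjusted p = 3.79e-06), opposite in sign to that of Robo3. Plxna1, a plexin that binds a Slit fragment, had a log2 fold change of 1.34 (edgeR adjusted p = 5.28e-05), and Flrt3, which binds Robo1 on the same cell, one of 1.22 (0.000326). The vascular receptor Robo4 was not tested, at 1.98 CPM or less in every library.

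Of 22 intracellular partners, 21 were tested. In NA and PFC, 4 of these were higher, against 7.58% of all genes tested, and 2 were lower, against 6.66%. The median log2 fold change of the list was 0.15, against 0.013 over all genes. Pak1, a kinase activated by Rac and Cdc42, averaged 1006 ± 103 CPM in the NA libraries and 660 ± 84.3 CPM in the PFC libraries, against 1855 ± 233 CPM in the RSC libraries and 1372 ± 82.4 CPM in the VHN libraries (SD over 3 libraries), with a log2 fold change of -0.97 ± 0.101 (SE, edgeR adjusted p = 1.15e-05). Rac1, the small GTPase upstream of it, averaged 480 ± 53.6 CPM in the NA libraries and 570 ± 79.8 CPM in the PFC libraries, against 308 ± 13.3 CPM in the RSC libraries and 260 ± 14.5 CPM in the VHN libraries (log2 fold change 0.89, edgeR adjusted p = 8.14e-05). Cap1, an actin-turnover protein (0.98, 0.00178), and Srgap3, a GTPase-activating protein of the family that binds Robo1 (0.64, 0.00443), were higher too. The other 2 calls were near the threshold: Pak3 higher (0.36, 0.0481) and Cap2 lower (-0.44, 0.0411).

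Of 7 genes of receptor trafficking and turnover, 6 were tested and 2 were higher: the ubiquitin ligases Nedd4l (log2 fold change 1.23, edgeR adjusted p = 1.65e-05) and Nedd4 (0.57, 0.00334). The share of all genes called higher was 7.58%. The median log2 fold change of that list was 0.33, against 0.013 over all genes. Of 10 enzymes of heparan sulfate synthesis, all were tested and none passed in this contrast, against 14.2% of all genes (edgeR, median log2 fold change 0.11). A list of 10 genes is too short to tell this from that share. Of these enzymes Ndst3, an N-sulfotransferase, alone passed the 4-population test (edgeR adjusted p = 0.0131), which 8.93% of all genes passed. Ndst3 stood at 447 ± 195 CPM in the NA libraries and 206 ± 20.8 CPM in the PFC libraries, against 220 ± 19.4 CPM in the RSC libraries and 248 ± 26.0 CPM in the VHN libraries (SD, 3 libraries a group).

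**Figure D4:**
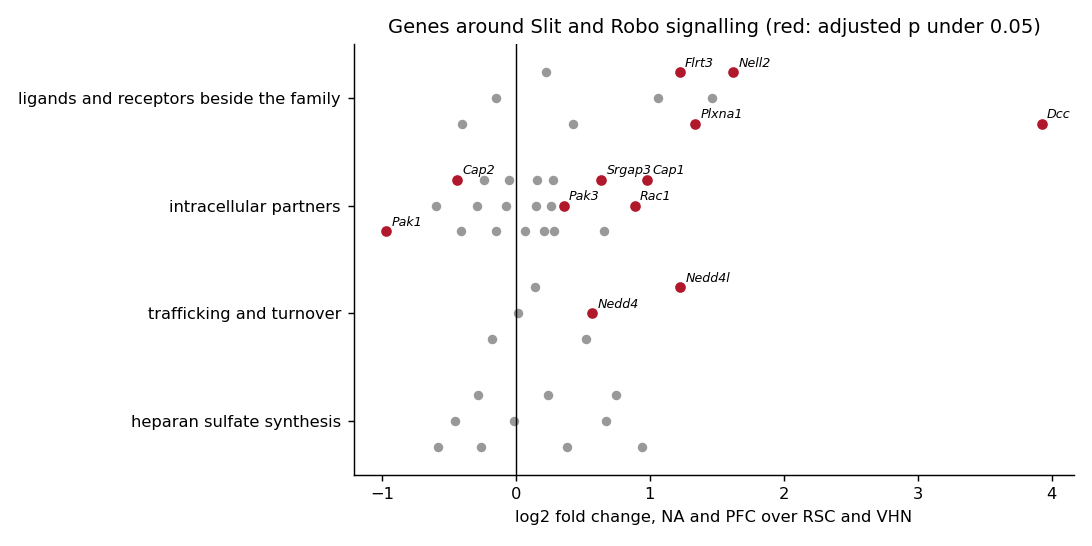
Log2 fold change of NA and PFC over RSC and VHN for the tested genes of the 4 lists around Slit and Robo signalling, 1 point a gene, spread within a list only for legibility. Red points passed (adjusted p under 0.05) and are named. Dcc (3.93) lies farthest to the right and Pak1 (-0.97) farthest to the left.

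In the single-cell table, 1000 or more genes were detected in 348 wells, whose median total was 112401 counts. The 36 wells under that limit held no read of any member. Slc17a7 was read in 93.7% of the 348 wells and Gad2 in 2 wells, which held 6 reads of the members in all.

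Slit3 was read in 186 of 348 wells (53.4%, exact 95% interval 48.1 to 58.8), more often than any other member. Robo3 followed with 126 wells (36.2%, 31.2 to 41.5), then Robo2 with 92 (26.4%, 21.9 to 31.4), Slit1 with 86 (24.7%, 20.3 to 29.6), Slit2 with 82 (23.6%, 19.2 to 28.4) and Robo1 with 47 (13.5%, 10.1 to 17.6). The intervals cover counting error only, and those of Robo2, Slit1 and Slit2 overlap. In wells with a read, the median was 4 to 7 reads. A well without a read is not a cell shown to lack the transcript. Plates were not alike. Robo3 was read in 17.8% of wells on plate Q8, against 39.3 to 45.3% on the other 3, and Robo1 in 3.61% on plate Q7, against 11.1 to 20.2% elsewhere.

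Reads of ligands and receptors were counted together in each well. At least 1 Slit was read in 243 wells (69.8%) and at least 1 Robo in 212 (60.9%), and 151 wells (43.4%) held reads of both. The product of the single shares is 42.5%, so any Slit and any Robo fell in the same well about as often as their separate shares give. Single pairs departed from this in both directions. Of the 86 wells with Slit1, 19.8% had Robo3, against 36.2% of all wells, and 39.5% had Robo2, against 26.4% of all wells. A further 92 wells held a Slit only, 61 a Robo only and 44 neither. Robo1 or Robo2 was read in 115 of the 348 wells (33.0%). By combination, 97 wells had Robo3 with neither Robo1 nor Robo2, 29 had it with at least 1 of them, and 86 had Robo1 or Robo2 without Robo3. Of the 47 wells with Robo1, 24 (51.1%) had Robo2 and 10 (21.3%) had Robo3, and of the 126 wells with Robo3, 23 (18.3%) had Robo2.

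Wells were also set apart by Nts, the neurotensin precursor, which in bulk was at 10.9 to 31.6 CPM in NA and PFC, against 199 to 406 CPM in RSC and VHN. Of the 348 wells, 204 had at least 100 CPM of Nts and 144 had less, with median totals of 116846 counts in Nts-high wells and 101632 in Nts-low wells. Of all wells, 95 lay between 30 and 300 CPM of Nts, near the limit. Nts was chosen with its bulk levels and those of the members known. No test was made, since the wells are 1 pooled sample. Robo3 was read in 53.4% of Nts-high wells (exact 95% interval 46.3 to 60.4), against 11.8% of Nts-low wells (7.03 to 18.2). After thinning each well to 30000 counts the shares were 39.7% of Nts-high wells, against 10% of Nts-low wells, with 14 Nts-low wells too shallow to enter. On each of the 4 plates the share was higher in Nts-high wells, by 26.7 to 50.2 percentage points. Summed over wells, Robo3 stood at 48.9 CPM in Nts-high wells, against 10.1 CPM in Nts-low wells.

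Slit1 had the reverse distribution, with a read in 17.2% of Nts-high wells (12.3 to 23.0), against 35.4% of Nts-low wells (27.6 to 43.8). After thinning it was read in 9.31% of Nts-high wells, against 26.9% of Nts-low wells. It too kept its direction on each plate, by 11.1 to 24.6 points. Robo2 was read in 24.02% of Nts-high wells, against 29.9% of Nts-low wells. After thinning these were 15.7% of Nts-high wells, against 27.7% of Nts-low wells. With a Nts limit of 30 CPM Robo2 was read in 26.3% of Nts-high wells, against 26.7% of Nts-low wells. Robo1 was read in 10.8% of Nts-high wells (6.88 to 15.9), against 17.4% of Nts-low wells (11.6 to 24.6), and these intervals overlap. After thinning Robo1 was read in 6.37% of Nts-high wells, against 12.3% of Nts-low wells. The summed level was 12.5 CPM in Nts-high wells, against 28.6 CPM in Nts-low wells, for Robo2. For Robo1 it was 3.94 CPM in Nts-high wells, against 12.7 CPM in Nts-low wells. Slit2 was read in 27.9% of Nts-high wells, against 17.4% of Nts-low wells. After thinning Slit2 was read in 19.6% of Nts-high wells, against 11.5% of Nts-low wells. Its summed level was 24.2 CPM in Nts-high wells, against 14.7 CPM in Nts-low wells. The order of the Slit2 shares turned on plate Q5 and with a Nts limit of 300 CPM. At that limit Slit2 was read in 19.7% of Nts-high wells, against 26.1% of Nts-low wells. In bulk, Slit2 was higher as an average over NA and PFC, the populations lower in Nts. Slit3 was read in 57.4% of Nts-high wells, against 47.9% of Nts-low wells, and after thinning in 39.2% of Nts-high wells, against 37.7% of Nts-low wells. Its summed level was 35.2 CPM in Nts-high wells, against 36.5 CPM in Nts-low wells, so no order is read from these shares.

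All 22 wells without a Slc17a7 read were Nts-low. Among wells with a Slc17a7 read, Robo3 was read in 53.4% of Nts-high wells, against 12.3% of Nts-low wells. Slit1 was read in 17.2% of these Nts-high wells, against 41.8% of Nts-low wells, and Robo2 in 24.02% of Nts-high wells, against 34.4% of Nts-low wells. Over all 348 wells, Kit, a receptor kinase, was read in 15.7% of Nts-high wells, against 41.7% of Nts-low wells. Of the 144 Nts-low wells, 61 had at least 100 CPM of Calb1, the calcium-binding protein calbindin. Slit1 was read in 50.8% of these, against 24.1% of the other 83. After thinning, which left 60 Calb1-high wells and 70 others, these shares were 31.7% of the Calb1-high wells, against 22.9% of the others. The summed Slit1 level was 24.96 CPM in the Calb1-high wells, against 18.1 CPM in the others. Slit3 was read in 62.3% of the Calb1-high wells, against 37.3% of the others, and after thinning in 45% of the Calb1-high wells, against 31.4% of the others. Robo1 was read in 27.9% of the Calb1-high wells, against 9.64% of the others, while Slit2 was read in 9.84% of the Calb1-high wells, against 22.9% of the others. After thinning Robo1 was read in 20% of the Calb1-high wells, against 5.71% of the others, and Slit2 in 1.67% of the Calb1-high wells, against 20% of the others. Slc17a7 was read in 98.4% of the 61 wells, against 74.7% of the 83.

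**Figure D5:**
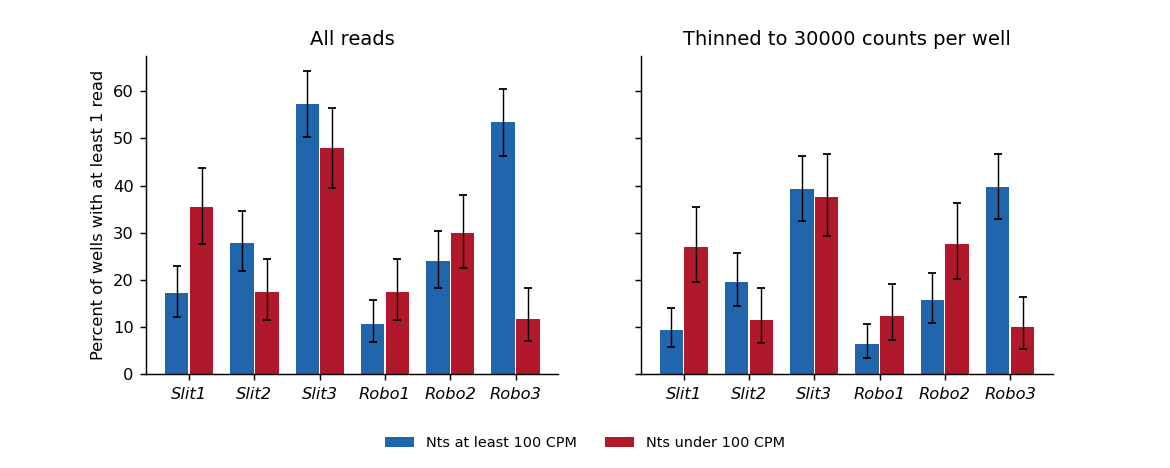
Percent of wells with at least 1 read of each gene in wells with at least 100 CPM of Nts (blue) and under it (red), from all reads (left) and after thinning to 30000 counts per well (right). Bars start at 0, and error bars are exact 95% intervals that cover counting error only. Robo3 is the tallest contrast, at 53.4% of Nts-high wells, against 11.8% of Nts-low wells, and Slit1 runs the other way.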

How the data were processed

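The bulk table has the read-group layout of Cuffdiff, per the file headers, and the build was mm9, per the submitters' processing notes. Aligner, annotation and strand setting are not given in the sources used here, so reads of overlapping genes cannot be told apart. Annotated genes that overlap a member and were matched in the table had at most 15 fragments over the 12 libraries. The authors' deposited expected counts are estimated fragments per gene, unscaled, and 8.51% of those above 0 were not whole. They were rounded. The FPKM values were scaled per library by the authors, per the file headers. The deposited single-cell counts are whole numbers, in 384 wells that no label ties to a sample. Depth was 10777273 to 20904126 fragments per bulk library.

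Symbols were matched by identifier in a later annotation (87.5% of rows). Bulk genes were filtered with filterByExpr and fitted in 1 edgeR 4.0.16 quasi-likelihood model of the 4 populations with TMM (R 4.3.3, common coefficient of variation 0.736, 8 residual degrees of freedom), adjusted over all 13916 genes. The method was tested on simulated data for NA and PFC against RSC and VHN (13546 genes, 200 changed): it called 47% of genes changed by 4-fold and 63% of those changed by 8-fold, and 3.51% of its calls were unchanged genes. DESeq2 1.42.0, limma 3.58.1 on log2(FPKM + 1), other filters and left-out libraries were alternatives. The table numbers replicates from 0 and the labels from 1, and libraries were named as if both ran in the same order. Folds called ratios are of arithmetic means. Fold changes in log2 are edgeR estimates. Their standard errors were derived from the same test, as the absolute log2 fold change over the square root of its F statistic.

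Members and lists were chosen with earlier results of these data known. Named beside the 6 members are up to 4 genes per list that passed, by lowest p, and the 3 genes most like each member that passed the 4-population test. Cap2 and Pak3 were named after their values were seen. Marker lists of pyramidal cells, interneurons, astrocytes, oligodendrocytes, their precursors, microglia and endothelial and mural cells were summed per library. Maximum sums were 12.9 CPM for astrocytes, 4.97 for oligodendrocyte precursors and 1.05 for microglia. Oligodendrocyte markers summed to 43.3 to 81.1 CPM in NA and PFC, against 42.5 to 153 in RSC and VHN. Shares of wells have exact (Clopper-Pearson) 95% intervals, which cover counting error only.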

Additional observations from a re-analysis of the deposited data

How the results depend on the processing

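The calls of Slit1, Slit2, Robo1 and Robo2 in NA and PFC over RSC and VHN were kept under all 20 alternatives, and the log2 fold changes ranged from 2.68 to 3.34 for Slit1, 1.98 to 4.14 for Slit2, 2.22 to 2.97 for Robo1 and 1.37 to 1.94 for Robo2. Slit3 was never called there (adjusted p 0.0569 to 0.296). Robo3 was lost in 11 of 20 alternatives, among them limma on log2(FPKM + 1) (adjusted p = 0.0573) and log2(FPKM + 0.1) (0.0685), and kept its sign in all 20 (log2 fold change -2.46 to -1.39). In the 4-population test Robo3 was called by DESeq2 (0.0281), without a filter on low counts (0.00147), without PFC replicate 3 (0.034) and without both NA replicate 2 and PFC replicate 3 (0.013). That last alternative, chosen after seeing the data, leaves out the libraries with the fewest detected genes (13911 and 13555). It moved Robo3 in NA and PFC over RSC and VHN to a log2 fold change of -2.46 and lost Robo1 from the 4-population test (0.0504).

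Genes called in the 4-population test numbered 1243, against 2408 with DESeq2, 2709 with no filter and 446 without the 3 libraries highest in Gad2, and in NA and PFC over RSC and VHN 1982, against 746 without those 3. DESeq2 also called Robo1 (adjusted p = 0.0492) and Robo2 (0.00771) in NA over VHN and Robo3 in PFC over VHN (0.0154). Without TMM, NA and PFC were higher for 913 genes and lower for 1046, against 1055 and 927 with it, and the median log2 fold change of all genes was -0.059, against 0.013. No member's call changed in that contrast.

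The labels do not say that replicate numbers pair the samples. Deviations of same-numbered libraries from their population means were nearly uncorrelated over all tested genes (18 correlations, -0.026 to 0.038). A pairing that touches few genes could go unseen in such correlations. With the number as a replicate block, 1098 genes and 4 members were called in the 4-population test and 1803 genes and 5 members in NA and PFC over RSC and VHN, and Robo2 passed in NA over VHN (0.0472).

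Some uncalled differences changed sign. Slit3 in NA over PFC was -0.12 without TMM and -0.028 with the block, where Slit2 in PFC over VHN was 0.085 and Robo2 in RSC over VHN 0.0404. With 1 library left out, log2 fold changes ranged from -0.39 to 0.22 for Slit3, -0.11 to 0.45 for Robo1 and -0.14 to 1.57 for Robo3 in NA over PFC, and from -0.72 to 0.086 for Slit1, -0.15 to 0.13 for Slit3 and -0.38 to 0.29 for Robo2 in RSC over VHN.

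For the wells, differences are Nts-high minus Nts-low shares in percentage points. At a Nts limit of 30 CPM they were -15.9 for Slit1, 14.7 for Slit2, 11.6 for Slit3, -5.60 for Robo1, -0.43 for Robo2 and 40.1 for Robo3. At a limit of 300 CPM they were -28.7 for Slit1, -6.36 for Slit2, -1.47 for Slit3, -18.7 for Robo1 and -15.9 for Robo2. Slit2 was -3.96 on plate Q5, 21.8 on Q6 and 20 on Q8. Robo3 was 29.7 after thinning, 50.2 on plate Q7 and 26.7 on Q8. The limit to wells with a Slc17a7 read and the thinning of the split by Calb1 were chosen after seeing the data. Under that thinning no member changed direction.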
